A study of Rattus norvegicus with 29 samples.

Results

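Transcripts of the nucleus accumbens shell were compared between P rats with limited access to ethanol and P rats with water only; the P line was bred for preferring alcohol. The comparison took the 10 samples labelled as limited ethanol and the 9 labelled as water only, out of 29 samples in the series, and the 10 remaining samples, from P rats with continuous ethanol, entered the fit to share its estimate of the spread and served as a further reference. It covered 21729 of 31099 probe sets, those that were no control probe sets and had a mean log2 value above 6.86 over all arrays. Rats of all 3 groups were of the P line, so the water group carries the same inherited preference for ethanol as the drinking groups. Ethanol concentration, length and number of the access sessions, weeks of drinking, intake, sex, age, and the interval between the last session and tissue collection are not given in the sources used here. Nothing in the labels ties the samples to individual animals, so p-values here reflect the spread from sample to sample, part of which may be technical.

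The shell lies in the ventral striatum, where dopamine from the midbrain meets glutamate from cortex, hippocampus and amygdala. Most of its neurons are GABA-releasing medium spiny neurons, which carry D1 dopamine receptors with dynorphin and substance P, or D2 dopamine receptors with enkephalin. When neurons are driven by synaptic input and calcium entry, a class of immediate early genes is transcribed within minutes through the transcription factors CREB and SRF, and their mRNAs decay again within hours. Among them are transcription factors (Fos, Junb, Egr and Nr4a genes), effectors at the synapse (Arc, Homer1) and brakes on the MAP kinase cascade (Dusp genes).

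The arrays carried the tissue's markers. Ppp1r1b, which encodes DARPP-32, the dopamine-regulated phosphatase inhibitor of medium spiny neurons, had a median log2 value of 12.61 in the water and 12.49 in the limited group, and Penk, the enkephalin precursor, had 13.54 and 13.55. Pair correlations of arrays over the tested probe sets lay between 0.975 and 0.997, and 0 pairs were identical. Water replicates 7 and 9 stood apart on the first principal component (20.25% of the variance), and the latter resembled its group least, with a median correlation of 0.979 to the other water arrays. Water replicates 2, 5 and 6 and limited replicates 6 and 7 stood apart on the second (16.5%). Water replicate 2 and limited replicate 6 supplied 22 of the 33 cases in which 1 array lay far from the rest of its group for a named gene, and limited replicate 9 had outlying choroid plexus transcripts.

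No probe set passed an adjusted p of 0.05 between limited access and water (0 of 21729, 0%, limma with Benjamini-Hochberg adjustment), and the smallest adjusted p was 0.234. An unadjusted p under 0.05 was found for 965 probe sets (4.44%), of which 456 (2.1%) were higher and 509 (2.34%) lower with limited access. At an unadjusted p under 0.01 the share was 0.87%, and under 0.001 it was 0.10%, by limma. These shares are about what such thresholds give when no probe set differs, so the 965 are not read as changed transcripts. With each gene on its brightest probe set, 247 of 11328 genes (2.18%) were higher and 270 (2.38%) lower at that level. The shares of higher and lower genes are the background against which the counts in gene groups below are read. The 965 stood for 695 named genes and 239 probe sets without a name here, and their differences were small, between 0.049 and 0.65 in size with a median of 0.12 on the log2 scale.

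The absence of calls came with narrow intervals for most transcripts. The median standard error (SE) of a difference was 0.053, and the 95% interval lay within 0.25 of 0, in either direction, for 18930 probe sets (87.1%) and within 0.5 for 21332 (98.2%). It reached a 2-fold difference, 1 on the log2 scale, for 27 probe sets. Of all differences 176 were larger than 0.25 (96 higher, 80 lower) and 14 larger than 0.5. The median difference over all tested probe sets was 0.00. Over all tested probe sets the spread between limited access arrays was no wider than that between water arrays, with a median SD of 0.111 against 0.120. The limited group had the larger SD for 41.7% of probe sets. Among genes taken up below these included Nr4a1 (0.22 against 0.13), Junb (0.15 against 0.06) and Arc (0.34 against 0.21), but not the leading probe set of Dusp6 (0.09 against 0.16).

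Over both directions the 5 named genes of smallest p were Nr4a1, Nat8f3, Junb, Lims2 and Homer1, of which Nat8f3 and Lims2 were lower with limited access. Of the 15 genes of smallest p that were higher, the first 7 were Nr4a1, Junb, Homer1, Gadd45g, Arc, Fos and Dusp1, which are activity-regulated genes. None passed the adjusted threshold. The promoters of the first 4 are printed here because these genes lay on the same side in nearly every array. They are RefSeq sequences of the rat assembly GRCr8, at chr7:134259888-134260187 on the plus strand for Nr4a1, chr19:40080876-40081175 on the plus strand for Junb, chr17:13530302-13530601 on the minus strand for Gadd45g and chr2:26278762-26279061 on the plus strand for Homer1. For Junb, Gadd45g and Homer1 the window runs from 250 bases before to 50 after the annotated start of the gene. The Nr4a1 window in the promoter table begins 12735 bases inside the annotated gene, downstream of its outermost start. Capitals mark the half-site of the cAMP response element, CGTCA or TGACG on the other strand, to which CREB binds.
Nr4a1: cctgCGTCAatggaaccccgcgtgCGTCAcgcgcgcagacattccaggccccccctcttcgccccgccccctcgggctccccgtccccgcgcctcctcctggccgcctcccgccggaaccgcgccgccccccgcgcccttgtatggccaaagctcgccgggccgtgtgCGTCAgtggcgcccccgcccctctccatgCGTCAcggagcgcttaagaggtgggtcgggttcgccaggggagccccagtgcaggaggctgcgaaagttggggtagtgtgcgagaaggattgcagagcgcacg
Junb: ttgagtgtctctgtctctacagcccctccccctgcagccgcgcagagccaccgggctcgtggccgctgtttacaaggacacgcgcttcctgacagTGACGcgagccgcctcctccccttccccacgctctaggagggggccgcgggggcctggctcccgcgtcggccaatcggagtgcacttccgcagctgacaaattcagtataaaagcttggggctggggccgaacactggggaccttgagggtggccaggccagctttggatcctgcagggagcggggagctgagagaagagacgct
Gadd45g: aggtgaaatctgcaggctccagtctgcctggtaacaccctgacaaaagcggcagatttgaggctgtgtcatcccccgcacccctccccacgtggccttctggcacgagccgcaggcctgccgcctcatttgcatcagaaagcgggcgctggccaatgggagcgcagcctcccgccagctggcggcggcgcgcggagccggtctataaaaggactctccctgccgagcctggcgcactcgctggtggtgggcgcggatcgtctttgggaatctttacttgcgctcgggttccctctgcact
Homer1: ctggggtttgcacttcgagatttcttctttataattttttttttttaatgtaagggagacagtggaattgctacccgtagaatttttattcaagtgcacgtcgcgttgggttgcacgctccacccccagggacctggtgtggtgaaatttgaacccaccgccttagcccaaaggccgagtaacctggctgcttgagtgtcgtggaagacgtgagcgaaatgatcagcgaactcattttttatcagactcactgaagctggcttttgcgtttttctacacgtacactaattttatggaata

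The Nr4a1 promoter held the half-site 4 times and the Junb promoter 1 time, while the windows of Gadd45g and Homer1 held none. The full element TGACGTCA and the AP-1 motif TGANTCA, both read on both strands, were in none of the 4. Over all 33469 promoters of this length in the table, 21.2% held the half-site, 1.83% the full element, of which the half-site is a part, and 7.33% the AP-1 motif. Of the 40 immediate early genes tested, 31 had a promoter in the table and 18 of these held the half-site. A match describes letters in a window and shows no binding.

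Nr4a1 encodes the orphan nuclear receptor NUR77, which is expressed strongly in the striatum and responds to dopamine signalling. Its log2 values ran from 10.10 to 10.47 in the water group, with a median of 10.27, and from 10.34 to 11.13 in the limited group, with a median of 10.72. In all, 9 of 10 limited arrays lay above the highest water array, and the lowest of the limited arrays, replicate 7, lay inside the water range. The difference was 0.47 ± 0.09 (SE), a ratio of 1.38, with an unadjusted p of 1.76e-05 and an adjusted p of 0.234 by limma.

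Junb encodes a partner of FOS in the AP-1 transcription factor. It read 9.56 to 9.73 in water, median 9.68, and 9.80 to 10.32 with limited access, median 9.90. Every limited array lay above every water array, which held for no other probe set: 1 of 21729 (0.0046%) separated upward and 0 (0%) downward. The difference was 0.28 ± 0.06, with an adjusted p of 0.316 by limma. Limited replicate 6, at 10.32, lay well above the other limited arrays, which reached 10.05, and without it the difference was 0.24 ± 0.05.

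Fos, the best known marker of recent neuronal activity, read 9.91 to 10.58 in water, median 10.39, and 10.08 to 11.15 with limited access, median 10.76. The groups overlapped, with 7 of 10 limited arrays above the highest water array. The difference was 0.45 ± 0.12, with an adjusted p of 0.928 by limma. On the dimmer probe set of Fos the difference was 0.17 ± 0.06, with an adjusted p of 0.972 by limma. Arc, whose product at the synapse regulates the removal of AMPA receptors, read 9.52 to 10.03 in water, median 9.86, and 9.78 to 10.98 with limited access, median 10.13. Its difference was 0.42 ± 0.11, with an adjusted p of 0.928, and 6 of 10 limited arrays lay above the water range.

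Gadd45g, a stress- and activity-induced regulator of growth arrest and DNA demethylation, read 9.02 to 9.30 in water and 9.11 to 9.43 with limited access, with medians of 9.07 and 9.30. All 10 limited arrays lay above the water mean and 5 of 10 above the highest water array, a difference of 0.20 ± 0.05. Dusp1, a phosphatase that switches off MAP kinases, was higher on both of its probe sets, by 0.28 ± 0.08 on the brighter and 0.38 ± 0.10 on the dimmer. On the brighter one water arrays read 10.64 to 11.14, median 10.85, and limited arrays 10.76 to 11.37, median 11.18, so that the ranges overlapped. Adjusted p-values of Gadd45g and Dusp1 were between 0.841 and 0.971 by limma.

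**Figure D1:**
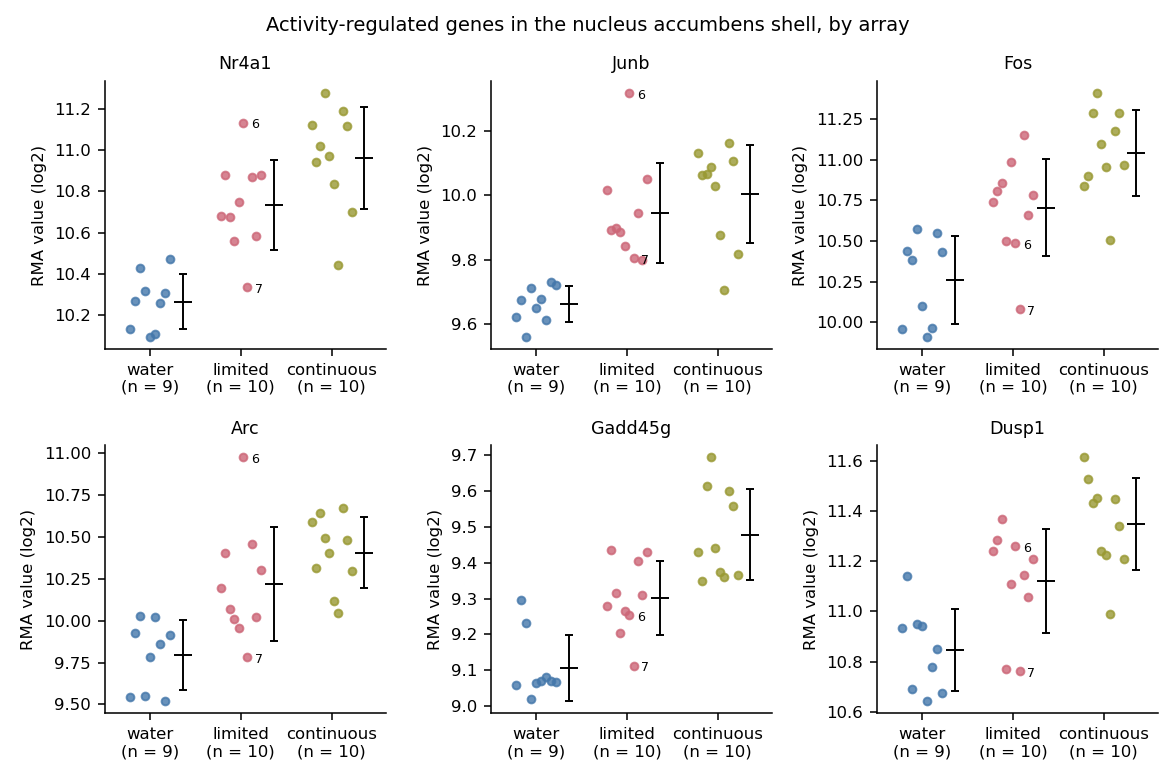
RMA log2 value of 6 activity-regulated genes on each array of the water, limited and continuous ethanol groups, each on its brightest probe set, with the mean and SD of the group at the right of its points; limited replicates 6 and 7 are numbered. Limited arrays of Junb start at 9.80, above the highest water array at 9.73, while in the other 5 genes the lowest limited arrays lie inside the water range.

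Over the whole list, 40 of 48 immediate early genes were tested. At an unadjusted p under 0.05, 9 of the 40 were higher (background 2.18%) and 0 lower (background 2.38%), and none passed the adjusted threshold. The 9 were Nr4a1, Junb, Gadd45g, Arc, Fos, Dusp1, Ier2, Tiparp and Egr2. Ier2 and Tiparp, an early response gene and a poly-ADP-ribose polymerase, differed by 0.22 ± 0.07 and 0.14 ± 0.05, and Egr2, of the Egr family of transcription factors, by 0.27 ± 0.11. The median over the 40 was 0.09, against 0.00 over all genes, and 34 of the 40 lay above 0.

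The list was not uniform. Egr1, a zinc finger transcription factor induced by MAP kinase signalling, differed by 0.10 with an interval from -0.04 to 0.23, Fosb by 0.04 (-0.15 to 0.23) and the clock gene Per1, which is also induced by activity, by 0.05 (-0.06 to 0.15). The probe sets of Jun, another AP-1 gene, disagreed: the brightest, which stands for the gene in the list, differed by 0.03 (-0.08 to 0.14), and the other 2 by 0.19 (0.07 to 0.31) and 0.16 (0.01 to 0.30), with adjusted p-values of 0.971 and 0.972 by limma. Bdnf, a neurotrophin that neurons release with activity, differed by 0.03 (-0.17 to 0.22). The lowest member was Ier3, at -0.23, with an interval down to -0.58. Nr4a2, a relative of Nr4a1, differed by 0.25, with an interval from -0.03 to 0.52.

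**Figure D2:**
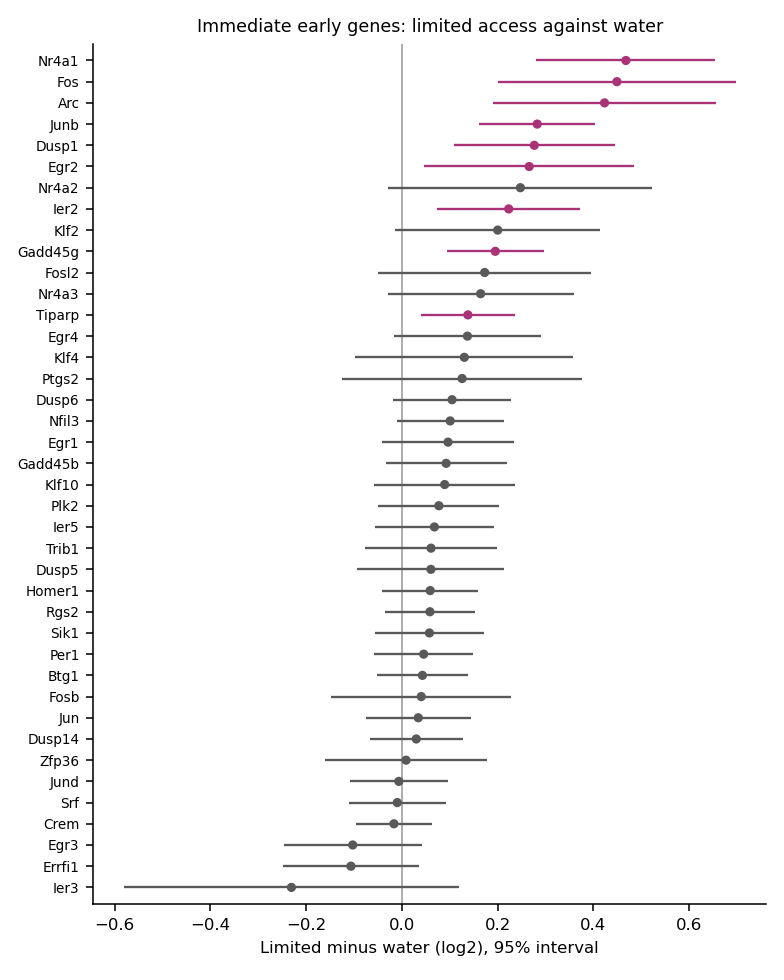
Limited minus water difference (log2) of the 40 tested immediate early genes, each on its brightest probe set, with 95% intervals from limma; purple marks an unadjusted p under 0.05, and no gene passed the adjusted threshold. The 9 purple genes all lie above 0, from 0.14 (Tiparp) to 0.47 (Nr4a1), and the lowest gene is Ier3 at -0.23.

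The arrays of the limited group differed among themselves in these genes. For the 9 genes and the leading Homer1 probe set together, limited replicate 7 was the lowest of the 10 limited arrays in 9 of the 10 probe sets and lay above the water mean in 3. Limited replicate 4 lay above the water mean in 8, and the other 8 limited arrays in all 10. Limited replicate 6 was the highest of its group in 5. The score of the whole list, the mean over its genes of the deviation from the mean of all arrays, was -0.15 in limited replicate 7 and 0.18 in limited replicate 6, with a range from -0.20 to 0.04 in the water group. Without limited replicate 7 the count at an unadjusted p under 0.05 was 11 of 40, without limited replicate 6 it was 10, and without water replicate 2, limited replicate 6 and limited replicate 9 it was 11.

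The differences were also taken within and outside the arrays apart on the second principal component. Among the 3 water and 2 limited arrays apart on it, Nr4a1 was 0.58 higher and Junb 0.39 higher with limited access, and among the 6 water and 8 limited arrays of the rest 0.41 and 0.26. Fos differed by 0.13 among the arrays apart and by 0.50 among the rest, Gadd45g by 0.04 and 0.24, Ier2 by 0.02 and 0.31, and Arc by 0.47 and 0.44. Gadd45g and Ier2 thus hardly differed among the arrays apart. The genes were named for being higher over these same arrays, so a shared direction in both sets is no independent support. No test was made within the sets.

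Homer1 makes a long scaffold of metabotropic glutamate receptors and a short, activity-induced form that uncouples it, and the array holds 5 tested probe sets for the gene. Probe set 1370997_at read 9.20 to 10.00 in water, median 9.65, and 9.62 to 11.00 with limited access, median 10.29, with 8 of 10 limited arrays above the water range. The difference was 0.65 ± 0.15, with an adjusted p of 0.581 by limma, and limited replicate 7 was the lowest limited array. The other 4 probe sets, the brightest one included, differed by between -0.17 and 0.07. Which transcript each probe set reads is not given in the sources used here.

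Probe set 1370454_at of Homer1 was the one call between limited access and continuous ethanol, and the call depended on the arrays and the model used. It read 9.77 to 10.68 in water, median 10.29, 9.70 to 10.50 with limited access, median 10.10, and 9.19 to 9.81 with continuous ethanol, median 9.42. It was higher with limited than with continuous access by 0.62 ± 0.10, with an adjusted p of 0.034 by limma, and it was the only one of 21729 probe sets (0.0046%) past the adjusted threshold in that contrast. Against water it differed by -0.17 (-0.39 to 0.05). Over 43 alternatives the difference stayed between 0.55 and 0.66, but the call was lost in 20. In 14 of these 1 array was left out, namely limited replicate 3, 4, 6, 7 or 10, water replicate 3 or 4, or continuous replicate 1, 2, 4, 6, 8, 9 or 10, and the adjusted p by limma then lay between 0.0505 and 0.115. The other 6 changed the model or left out several arrays. The adjusted p by limma was 0.628 without the 5 arrays apart on the second principal component, 0.112 with them as a block, 0.125 with the replicate block, 0.129 with the RNA quality covariate, 0.185 with the array SD covariate and 0.0937 without water replicate 2, limited replicate 6 and limited replicate 9. The highest continuous array, at 9.81, lay above the lowest limited arrays, so that the groups overlapped slightly.

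**Figure D3:**
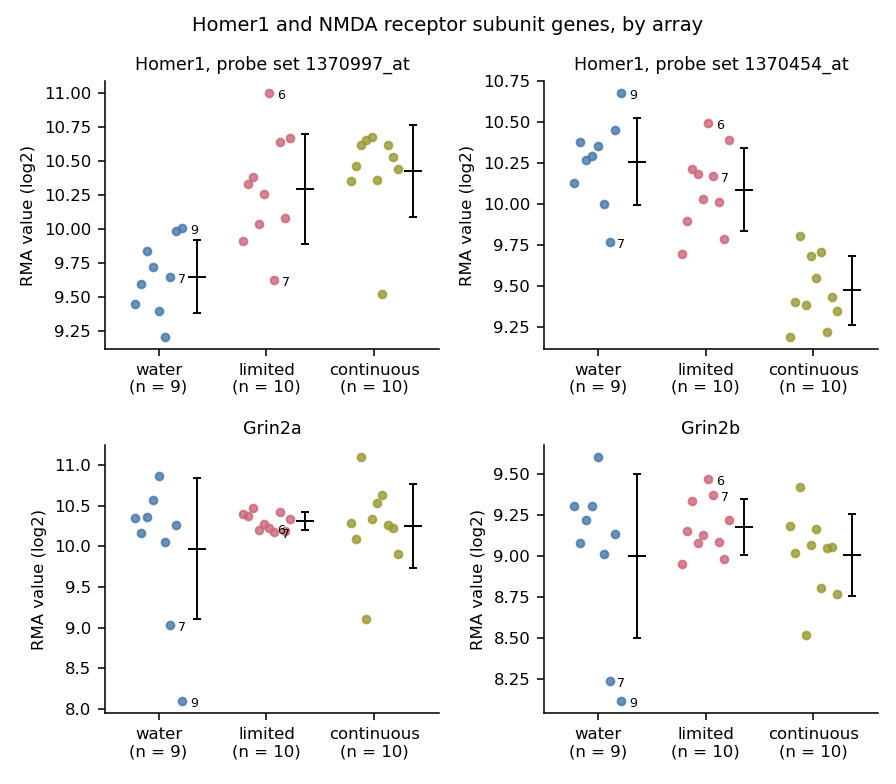
RMA log2 value on each array of 2 Homer1 probe sets and of the NMDA receptor subunit genes Grin2a and Grin2b in the water, limited and continuous groups, with group mean and SD at the right; water replicates 7 and 9 and limited replicates 6 and 7 are numbered. Homer1 1370454_at lies lowest in the continuous group (median 9.42), and the low Grin2a values of the water group are replicates 7 and 9 at 9.03 and 8.09.

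Continuous ethanol gives the second reference, and both comparisons use the same water arrays. Against water, 33 probe sets passed the adjusted threshold with continuous ethanol (0.152%) and 0 with limited access. The groups were not alike in array measures. All arrays apart on the second principal component were water or limited arrays. The RNA quality measure, from the 3 prime minus 5 prime signal of control probe sets, had medians of 0.54 in water, 0.49 in limited and 0.57 in continuous arrays, with overlapping ranges. The part of these measures in the counts was not tested. Nr4a1 differed from water by 0.70 with continuous and 0.47 with limited access, Fos by 0.79 and 0.45, Gadd45g by 0.37 and 0.20, Arc by 0.61 and 0.42, Ier2 by 0.41 and 0.22, and Junb by 0.34 and 0.28. The limited minus continuous differences were -0.23 ± 0.09 for Nr4a1, -0.34 ± 0.12 for Fos and -0.18 ± 0.05 for Gadd45g, with an adjusted p of 0.526 each by limma, so a smaller difference with limited access was not established for these genes. The dimmer probe set of Fos disagreed with the brighter one used here. It differed from water by -0.01 with continuous and 0.17 with limited access. Its limited minus continuous difference was 0.17 ± 0.05, with an adjusted p of 0.526 by limma. Junb differed by -0.06 between the schedules, with an interval from -0.18 to 0.06.

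The differences of the remaining higher genes of smallest p lay between 0.11 and 0.23. Pik3c3 (0.12 ± 0.03), the lipid kinase of autophagy, and Siah2 (0.20 ± 0.05), a ubiquitin ligase, lay above the water mean in all 10 limited arrays. Syt4 (0.23 ± 0.07), a synaptotagmin of dense-core vesicles that is itself activity-regulated, and Dusp6 (0.20 ± 0.06), a phosphatase specific for ERK, did so too, but each rested on a dimmer probe set of its gene. On the brightest one Syt4 differed by 0.02 and Dusp6 by 0.10. The others were Afg3l2 (0.13, and 0.08 without the 5 arrays apart on the second principal component), a mitochondrial protease, Hapstr1 (0.11), Prpsap2 (0.14) and Insig1 (0.11), a sterol-regulated brake on cholesterol synthesis. Adjusted p-values of these genes were 0.928 or 0.971 by limma.

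Among the 15 lower genes the leading one was Nat8f3, a member of a family of N-acetyltransferases. Its log2 values ran from 10.71 to 10.99 in water, median 10.85, and from 10.46 to 10.83 with limited access, median 10.62. All 10 limited arrays lay under the water mean and 8 of 10 under the lowest water array, a difference of -0.22 ± 0.04 with an adjusted p of 0.234 by limma. Lims2, an adaptor of integrin signalling, read 8.35 to 8.89 in water and 8.12 to 8.46 with limited access, with medians of 8.56 and 8.34. Its difference was -0.26 ± 0.06 with an adjusted p of 0.394 by limma, and the ranges overlapped. Without the 5 arrays apart on the second principal component the Lims2 difference was -0.16.

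Several lower genes belong to vessels or to signalling. Cav2, a caveolin of endothelial cells, differed by -0.29 ± 0.08 on a dimmer probe set, by -0.19 there without water replicates 7 and 9, and by -0.06 on its brightest probe set. Slc29a1, the equilibrative nucleoside transporter that takes up adenosine and is sensitive to ethanol in cultured cells, differed by -0.15 ± 0.04. Slc29a1 read 8.63 to 8.89 in water, median 8.71, and 8.45 to 8.66 with limited access, median 8.56, with 7 of 10 limited arrays under the lowest water array. Rps6ka4, a kinase downstream of MAP kinases that phosphorylates CREB and histone H3, was lower on both of its probe sets, by -0.17 and -0.12. Pik3cd, a PI3-kinase subunit of leukocytes, differed by -0.18, and Agtrap, which binds the angiotensin receptor, by -0.19, each on the dimmer of 2 probe sets. On the brighter ones the differences were -0.04 and -0.03.

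The other lower genes of smallest p were LOC100911253 (-0.25), LOC102549303 (-0.18), Fam118b (-0.16), Got2 (-0.25), Smarcd2 (-0.20), Castor1 (-0.21), Syne4 (-0.15) and Nherf2 (-0.15). Without the 5 arrays apart on the second principal component Fam118b differed by -0.10 and Smarcd2 by -0.11. Got2, the mitochondrial aspartate aminotransferase, was lower on its dimmer probe set and differed by 0.03 on its brighter one. LOC100911253 and Nherf2 also did not stand on their brightest probe sets, on which they differed by 0.02 and -0.06. The remaining probe set of LOC100911253 differed by -0.14. Of the 30 genes, higher and lower, 12 had several tested probe sets, and 15 of their 18 other probe sets had the same sign, 4 of them also at an unadjusted p under 0.05. Over all 304 genes with several probe sets and one at that level, 323 of 437 other probe sets (73.9%) had the same sign.

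Dopamine, opioid and signalling genes of medium spiny neurons are the classical candidates for ethanol reward. Of the 9 tested genes for dopamine receptors, synthesis and transport and of the 7 for opioid peptides and receptors, 0 were at an unadjusted p under 0.05. Drd1, the D1 receptor, read 11.79 to 12.43 in water and 12.05 to 12.37 with limited access, with medians of 12.15 and 12.11. Its difference was 0.01, with an interval from -0.11 to 0.13, and that of the D2 receptor Drd2 was -0.10 (-0.23 to 0.03). A difference of 0.25 in either direction lay outside both intervals.

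The peptides carried by these neurons gave the same kind of result. Penk differed by -0.00 (-0.11 to 0.10), Tac1, the substance P precursor, by 0.01 (-0.11 to 0.12), and Pdyn, the dynorphin precursor, by 0.03 (-0.17 to 0.22). The lowest water array of all 3 was replicate 2, and for Pdyn it read 11.22 against 11.89 to 12.28 over the limited arrays. The opioid receptor genes Oprm1 (mu) and Oprk1 (kappa) differed by -0.04 (-0.17 to 0.09) and 0.07 (-0.10 to 0.24). Oprd1 and Drd3 each had 1 probe set, whose means of 6.19 and 5.13 lay under the 6.86 needed to be tested.

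Among the 22 signalling genes of these neurons, 2 were lower (background 2.38%) and 0 higher (background 2.18%) at an unadjusted p under 0.05. They were Rgs9, the striatal brake on D2 and mu receptor signalling (-0.14 ± 0.06), and Rasgrp2, a calcium-dependent exchange factor (-0.11 ± 0.05). Rgs9 read 11.21 to 11.51 in water and 10.99 to 11.40 with limited access, and 7 of 10 limited arrays lay under the water mean. Ppp1r1b differed by -0.08 (-0.19 to 0.02) and the adenosine receptor gene Adora2a by -0.02 (-0.17 to 0.13).

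Of 27 other neuropeptide and receptor genes, 2 were higher (background 2.18%) and 0 lower (background 2.38%) at an unadjusted p under 0.05. In all, 24 lay above 0, with a median of 0.04. Crh, the stress peptide corticotropin-releasing hormone, read 7.20 to 8.14 in water and 7.43 to 8.11 with limited access, with medians of 7.68 and 7.92. The difference was 0.21 ± 0.10. Nts, neurotensin, read 8.91 to 10.55 in water and 9.91 to 10.69 with limited access, a difference of 0.29 ± 0.14. Water replicate 2, at 8.91, was far below the other water arrays for Nts, and without it and limited replicates 6 and 9 the difference was 0.18 ± 0.08. Npy, neuropeptide Y, differed by 0.07 (-0.04 to 0.18).

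Several glutamate receptor genes had wide intervals. Grin2a, an NMDA receptor subunit, read 8.09 to 10.86 in water, median 10.27, and 10.18 to 10.48 with limited access, median 10.30. Its difference was 0.34 (-0.17 to 0.84), and water replicates 7 and 9, at 9.03 and 8.09, were the low ones. Without both it was -0.07 ± 0.16, and on the dimmer probe set of the gene, with all arrays, -0.02. The same 2 arrays were lowest for Grin2b, Gria2 and Grm5, whose differences were 0.18, 0.12 and 0.04 with all arrays and -0.06, -0.05 and -0.22 without them. Of the 13 tested genes for glutamate receptors that are ion channels, which leave out the metabotropic receptor Grm5, 0 were at an unadjusted p under 0.05. The obligatory NMDA subunit Grin1 differed by -0.01 (-0.10 to 0.07).

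The genes of GABA signalling, of BK and GIRK channels and of the endocannabinoid system held none at an unadjusted p under 0.05. Of the 15 GABA genes tested, Gabra4 and Gabrd, subunits of extrasynaptic receptors, differed by 0.05 (-0.10 to 0.20) and -0.04 (-0.13 to 0.04). Kcnma1, the pore of the ethanol-sensitive BK channel, differed by -0.00 (-0.13 to 0.12), and Kcnj3, a subunit of the GIRK channels that ethanol opens, by 0.14 (-0.02 to 0.31). The 5 BK and GIRK channel genes had a median of 0.08. The cannabinoid receptor gene Cnr1 differed by 0.12 (-0.02 to 0.25), and by 0.06 without the 5 arrays apart on the second principal component. None of 13 genes for the breakdown of ethanol, acetaldehyde and acetate and none of 13 serotonin and acetylcholine receptor genes was at an unadjusted p under 0.05.

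**Figure D4:**
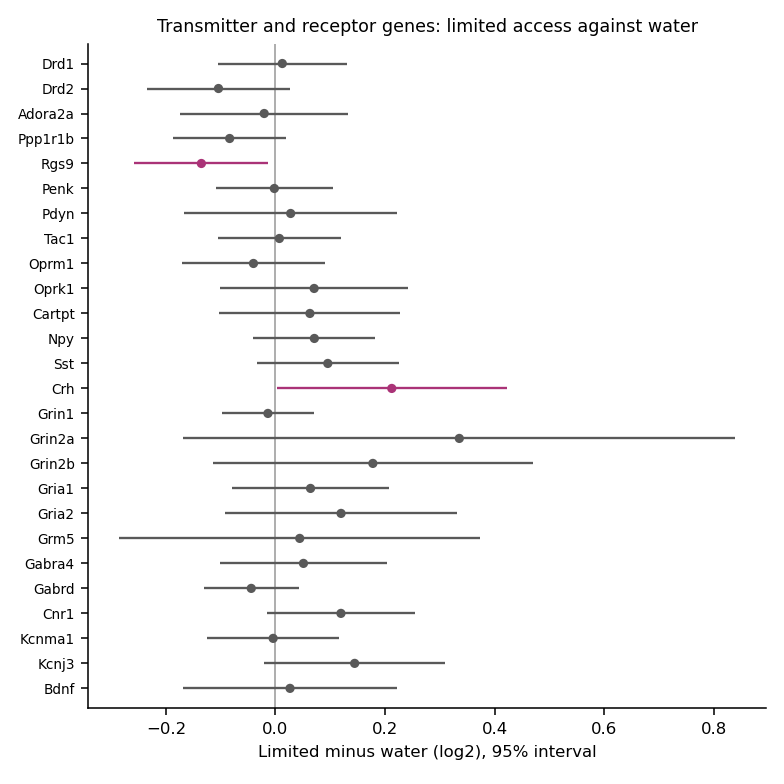
Limited minus water difference (log2) of 26 transmitter, receptor and channel genes, each on its brightest probe set, with 95% intervals from limma; purple marks an unadjusted p under 0.05. The intervals of Drd1, Penk and Tac1 lie within 0.15 of 0, while that of Grin2a runs from -0.17 to 0.84.

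Glucocorticoid-responsive genes, which corticosterone induces or represses through its receptor, held more lower than higher members. Of 23 tested, 4 were lower (background 2.38%) and 1 higher (background 2.18%) at an unadjusted p under 0.05, with a median of -0.07. Fkbp5, a chaperone of the glucocorticoid receptor and a standard readout of its activity, read 9.64 to 10.08 in water, median 9.80, and 9.49 to 9.84 with limited access, median 9.64. Its difference was -0.18 ± 0.06, with 9 of 10 limited arrays under the water mean and an adjusted p of 0.972 by limma. Tsc22d3, or GILZ, differed by -0.10 ± 0.04, and Sult1a1 and Angptl4 by -0.37 and -0.12. The 1 higher gene was Dusp1, which is also an immediate early gene. The count of lower genes was 2 without water replicate 2, 2 without limited replicate 4 and 2 without limited replicate 8.

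Most markers of vessels and of the brain's coverings lay below 0, and in bulk tissue fewer cells of a type and less RNA per cell cannot be told apart. Of 18 endothelial markers 3 were lower (background 2.38%) and 0 higher (background 2.18%) at an unadjusted p under 0.05. In all, 17 lay below 0, with a median of -0.08. Slc2a1, which carries glucose across brain capillaries, differed by -0.15 ± 0.05, Cav1 by -0.19 ± 0.08 and the tight junction gene Cldn5 by -0.13 ± 0.06. The count was 1 without water replicate 2, 6 without limited replicate 9 and 0 without the 5 arrays apart on the second principal component. The summed log2 level of the endothelial list ran from 167 to 176 in water and from 168 to 172 with limited access.

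All 17 leptomeningeal markers lay below 0, with a median of -0.28, yet 0 were at an unadjusted p under 0.05, and both groups spread widely. Fmod, an extracellular matrix gene, read 9.78 to 11.22 in water and 9.19 to 10.88 with limited access, a difference of -0.39 (-0.85 to 0.06), and Aldh1a2, a retinoic acid enzyme of the meninges, differed by -0.34 (-0.72 to 0.05). Without the 5 arrays apart on the second principal component these differences were -0.21 and -0.19. The summed log2 level of the 17 ran from 175 to 196 in water and from 173 to 191 with limited access, and the highest water array was replicate 2. With the leptomeningeal score as a covariate Nr4a1 differed by 0.43 ± 0.09, Junb by 0.26 ± 0.06 and Cav2 by -0.25 ± 0.07. The covariate was fitted for all tested probe sets, of which only these genes are given here. Whether this tissue is a cause of the differences was not tested.

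Of 15 medium spiny neuron markers 1 was lower (Rgs9), of 16 astrocyte markers 1 was lower (Gja1, a connexin of gap junctions, -0.07 ± 0.03), and of 15 oligodendrocyte and 15 microglial markers 0 were at an unadjusted p under 0.05. Over all genes tested, 2.38% were lower and 2.18% higher at that level. The astrocyte markers had a median of -0.05, with 15 of 16 below 0. Of 15 cortical excitatory markers 1 was higher and 1 lower at that level. In this list 9 lay above 0 and 6 below, with a median of 0.01. Slc17a7, a vesicular glutamate transporter of cortical neurons and 1 of those above 0, had a mean of 11.35 in water and 11.48 with limited access. Of 10 septal and hypothalamic markers 2 were higher (Trpc4 and Nts) and 0 lower, with a median of 0.10 that was 0.02 without limited replicate 9 and 0.02 without water replicate 2. Of 7 ependymal and choroid plexus markers 0 were at that level, and their median of 0.15 rested on limited replicate 9, without which it was -0.01. In that array Folr1, a folate receptor of the choroid plexus, read 9.27, while the other arrays of both groups lay between 6.64 and 7.05.

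**Figure D5:**
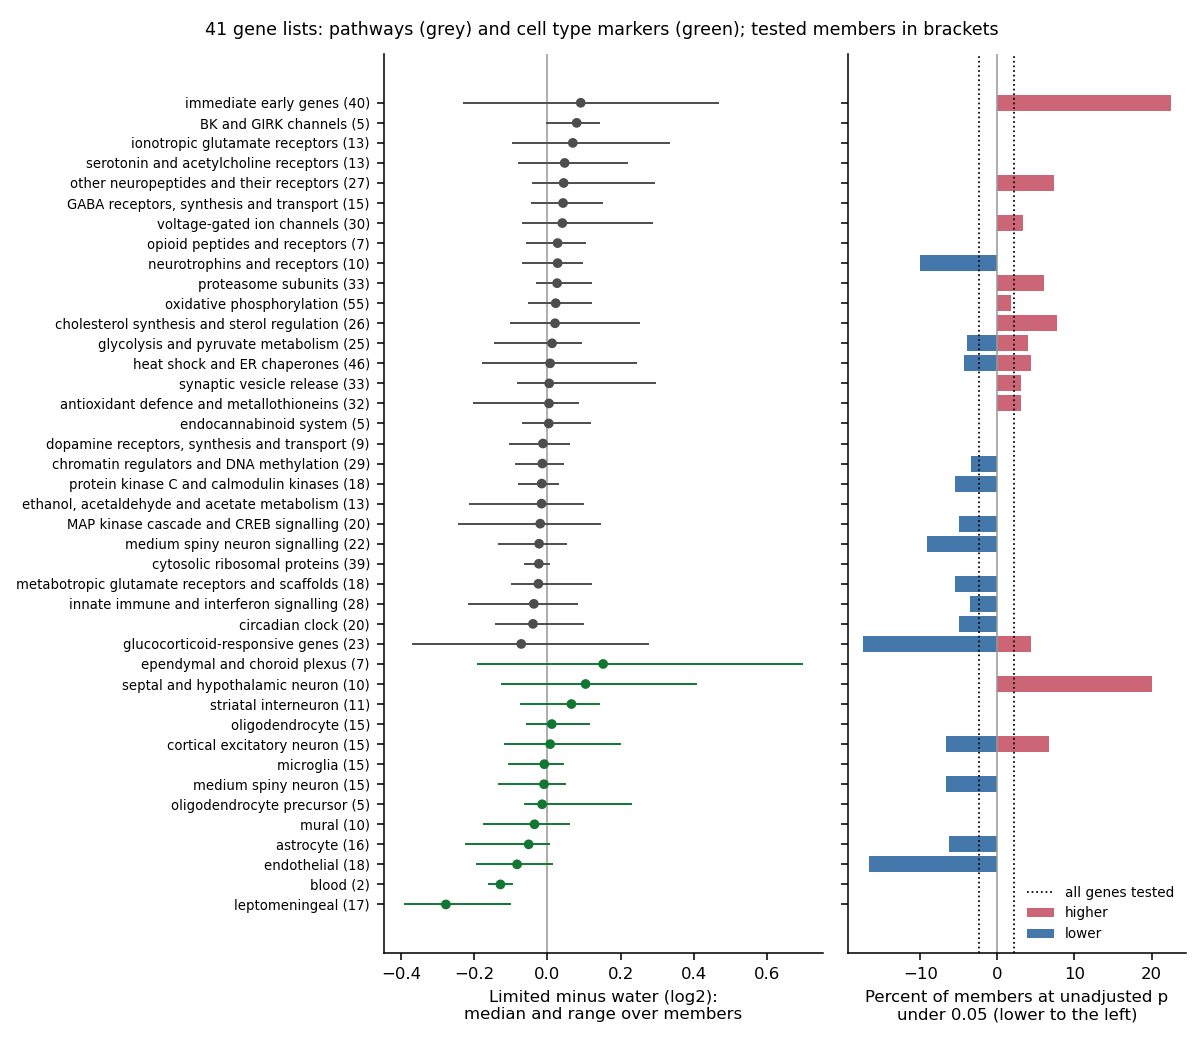
Left, median (point) and range (line) of the limited minus water differences (log2) over the tested members of 28 pathway lists (grey) and 13 marker lists (green); right, percent of members higher (red) or lower (blue) at an unadjusted p under 0.05, with dotted lines at 2.18% and 2.38%, the shares of all genes tested. Immediate early genes have the highest share of higher members, 9 of 40, and leptomeningeal markers the lowest median, -0.28, with no member at that level.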

How the data were processed

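RNA of the nucleus accumbens shell was measured on Affymetrix rat arrays, 1 per sample. The authors deposited log2 values from RMA, a method that corrects background, equalises the distributions of arrays by quantiles and summarises probes into probe sets; RMA is named in the submitters' processing notes. That the scale is log2 follows from its range, 4.04 to 16.04. The software version is not given in the sources used here. A shift of every transcript at once would be removed by RMA, and the number of arrays limits the precision.

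From these values, 57 control probe sets and the dimmest 30 percent by mean were left out, and a platform table gave 1 symbol to 15759 of the 21729 tested probe sets, standing for 11328 genes; probe sets with several symbols or none were not named. All 29 arrays entered 1 limma model (limma 3.58.1, statmod 1.5.0, R 4.3.3; lmFit and eBayes, group as the only factor), two-sided, with Benjamini-Hochberg adjustment over 21729 probe sets at 0.05. The fit was tested on simulated data. Differences are limited minus water on the log2 scale with SE or 95% interval. An unadjusted p under 0.05 served only to count members of gene lists, in which a gene stood on its brightest tested probe set. Promoters are RefSeq sequences of GRCr8, matched by symbol.

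Named were the 15 higher and 15 lower genes of smallest p, up to 3 members of smallest p from each of 41 lists, and 47 fixed genes with every Homer1 probe set; others were named after their values were seen. The comparison, the lists and the rule were chosen with earlier results of these data known. Samples of the same replicate number were not treated as pairs. Alternatives covered the filter, normalization, prior, array weights, replicate block, covariates, samples and probe set choice; leaving out water replicates 7 and 9, or water replicate 2 with limited replicates 6 and 9, was chosen after seeing the data, as was counting immediate early, endothelial and glucocorticoid-responsive genes and testing limited against continuous access under each alternative and without each continuous array.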

Additional observations from a re-analysis of the deposited data

Results flagged for a closer look

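A named or listed gene is given here where the highest or lowest array of the water or limited group lay further from its neighbour than Dixon's 95% value allows. This held in 33 of 344 groups examined (9.59%), where chance alone gives about 5%, and 11 cases each were water replicate 2 and limited replicate 6. All values are log2.

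In water replicate 2 the medium spiny neuron genes Ppp1r1b (12.43), Penk (13.32), Pdyn (11.22), Tac1 (12.15) and Adora2a (9.88) were lowest of the group, as were Nts (8.91) and Gphn (10.92), while Aldh1a1 (11.04), Aldh1a2 (11.34), Pdgfra (11.95) and Aqp1 (9.59) were highest. The same array had the highest leptomeningeal score. In limited replicate 6 Junb (10.32), Nherf2 (8.88), Pomc (7.60), Rps6ka4 (10.16) and Per1 (10.34) were highest, and Crh (7.43), Nts (9.91), Tpi1 (13.27), Rps3a (14.28), Hspa5 (12.10) and Ugt8 (10.17) were lowest.

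The remaining cases were spread over other arrays. In the water group they were Th in replicate 9 (8.004), Dlgap1 in replicate 7 (10.62), Nrtn (6.77) and Hspa5 (12.67) in replicate 6 and Cx3cr1 in replicate 5 (8.06). In the limited group they were Smarcd2 in replicate 7 (8.22), Gphn (11.29) and Opalin (10.92) in replicate 8, Sst in replicate 10 (13.07), and Pdgfra (11.95) and Folr1 (9.27) in replicate 9.

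Homer1 on probe set 1370454_at differed between the schedules, 0.62 higher with limited than with continuous access, with an adjusted p of 0.034 by limma, a call that was lost in 20 of 43 alternatives while the difference stayed between 0.55 and 0.66.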

How the results depend on the processing

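For limited access against water, no probe set passed the adjusted threshold under 34 of the 35 alternatives. With array weights 1 did, Nr4a1, with a difference of 0.45 and an adjusted p of 0.0206 by limma, against adjusted p-values of up to 0.956 under the others; the cause was not tested. Leaving out 1 array at a time gave 0 adjusted calls throughout and between 757 (without limited replicate 5) and 1276 (without limited replicate 6) at an unadjusted p under 0.05. With 1 probe set per gene that count was 557 of 11328, since fewer probe sets were tested. Deviations of same-numbered limited and water samples had correlations between -0.24 and 0.33, with 5 of 9 over 0.1. Only 1 of 9 pairs correlated best with its own number. Such a check cannot exclude a link between samples of the same number. With the replicate block there were 0 adjusted calls and 1071 at an unadjusted p under 0.05. Of the 30 leading genes 0 changed sign under any alternative. They were picked for the smallest p in these same arrays, so a change of sign was unlikely from the start. Of 41 list medians 23 kept their sign. The count of immediate early genes at an unadjusted p under 0.05 lay between 9 and 13 of 40. The medians of all tested probe sets moved by under 0.01 with quantile normalization or median centring. For limited against continuous access, 1 probe set of Homer1 (difference 0.62) passed, and 0 passed with the replicate block (0.62, adjusted p 0.125 by limma), without the arrays apart on the second principal component (0.55), with them as a block (0.59), with the RNA quality covariate (0.66), with the array SD covariate (0.61) and without the 3 arrays with outlying markers (0.60). With 1 probe set per gene 0 passed too, but that fit did not hold this probe set, which is not the brightest of Homer1. With the leptomeningeal covariate 2 passed. Without 1 water, limited or continuous array at a time, between 0 and 3 passed, and the Homer1 difference lay between 0.57 and 0.66. The cause was not tested.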

Other observations

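Housekeeping and metabolic gene groups differed little. Of 39 cytosolic ribosomal protein genes 0 were at an unadjusted p under 0.05, and 35 lay below 0 with a median of -0.02. Quantile normalization and median centring did not turn this direction, but RMA had already equalised the arrays, so they could hardly do so. Of 55 oxidative phosphorylation genes 40 lay above 0 with a median of 0.02, and 1, Ndufb6 of complex I, was at an unadjusted p under 0.05 (0.07 ± 0.03). Of 33 proteasome subunits 27 lay above 0, with Psmd6 (0.08 ± 0.03) and Psma5 (0.09 ± 0.04) at that level. Of 26 genes of cholesterol synthesis and sterol regulation 21 lay above 0, with Insig1 (0.11 ± 0.03) and Idi1 (0.12 ± 0.04), an isomerase of isoprenoid synthesis, at that level. None passed the adjusted threshold by limma, and the background at an unadjusted p under 0.05 was 2.18% higher and 2.38% lower.

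Of all genes tested, 2.18% were higher and 2.38% lower at an unadjusted p under 0.05. Against these shares several other groups, of 10 to 33 tested genes, held 1 gene each, not read as a result for its group. Among synaptic vesicle genes it was Rab3c (0.17 ± 0.05), among scaffolds of metabotropic glutamate receptors Dlg1 (-0.10 ± 0.03), which encodes SAP97, among ion channels the small-conductance calcium-activated channel Kcnn3 (0.11 ± 0.05), among neurotrophin genes the BDNF receptor Ntrk2 (-0.07 ± 0.03), among innate immune genes Irf3 (-0.13 ± 0.05), among clock genes Rorb (-0.12 ± 0.05), among protein kinase C and calmodulin kinase genes Prkcq (-0.08 ± 0.04), among MAP kinase and CREB genes Rps6ka4 (-0.12 ± 0.04), among chromatin regulators Smarca2 (-0.09 ± 0.04) and among antioxidant genes Sod2 (0.07 ± 0.03). Of 46 chaperone genes 2 were higher and 2 lower, of 25 glycolytic genes 1 and 1, and of 11 interneuron, 10 mural, 5 oligodendrocyte precursor and 2 blood markers 0 were at that level. Dlg1 read 11.74 to 11.92 in water and 11.66 to 11.78 with limited access, with 8 of 10 limited arrays under the lowest water array.

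Unnamed probe sets were among those of smallest p, and 3 of them, chosen after their values were seen, were also lower with continuous ethanol, against the same water arrays. Probe set 1396029_at read 9.55 to 9.89 in water, 9.10 to 9.61 with limited access and 8.39 to 9.28 with continuous ethanol. Its difference from water was -0.36 ± 0.09 with limited access and -0.70 with continuous ethanol. For probe set 1380527_at these differences were -0.31 ± 0.08 and -0.64, and for 1383838_at -0.29 ± 0.07 and -0.42. Their adjusted p-values against water with limited access were between 0.581 and 0.841 by limma.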
